A study of Mus musculus with 81 samples.

Results

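The genes described here encode the subunits of oxidative phosphorylation, the mitochondrial machinery that passes electrons to oxygen and makes ATP. They were chosen by symbol from the platform's gene table, as genes starting with Nduf, Uqcr, Cox4 to Cox8 or Atp5 together with Sdha, Sdhb, Sdhc and Sdhd, each measured by its brightest probe set with a single symbol. This gave 89 members of 19752 genes. By their known roles 74 of them are subunits of the common complexes, 7 are assembly factors of complex I (Ndufaf1 to Ndufaf7) and 8 are tissue-restricted or hypoxia-linked isoforms of complex IV subunits. The values are log2 intensities, so a difference of 1 is a change of 2-fold.

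Neutrophils carrying CD11b and Ly6G were sorted from the bone marrow of untreated male inbred mice, labelled as 6 weeks old although the series design text gives a lower age, and their transcripts were read on 81 whole-transcript arrays of Affymetrix type. The RNA on an array came from a pool of several mice. Sample titles gave 40 strain groups, of which 37 had 2 arrays, FVB/NJ and SWR/J a single array and C57BL/6J 5. By common knowledge of strain names 5 groups are wild-derived, namely CAST/EiJ, PWD/PHJ, WSB/EiJ, MSM/Ms and JF1/Ms. The other 35 are classical laboratory strains: 129S1/SvImJ, A/J, AKR/J, C3H/HeJ, C57BL/10J, C57BL/6J, C57BLKS/J(662), C57L/J (668), CBA/CaJ, CBA/J, CE/J, DDY/JclSidSeyFrkJ, FVB/NJ, KK.Cg-Ay/J (which carries the Ay allele of agouti), LGJ, LP/J(676), MA/MyJ, MRL/MpJ, NOD/ShiLtJ, NON/ShiLtJ, NOR/LtJ, NZB/BINJ, NZW/LacJ, P/J, PL/J, RIIIS/J, SEA/GnJ, SJL/J, SM/J, SWR/J and 5 groups whose title and background label name different strains, called by their titles as titled DBA2, titled C57BR, titled BPL, titled Balb and titled BTBR.

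Complex I takes electrons from NADH and complex II takes them from succinate, both hand them to ubiquinone, complex III passes them to cytochrome c, and complex IV reduces oxygen. The protons pumped on the way drive complex V, the ATP synthase. A few core subunits are encoded by mitochondrial DNA and the rest by nuclear genes spread over many chromosomes, which are classical targets of the transcription factors NRF1, of the ETS family member GABP and of YY1. Mature neutrophils are known for few mitochondria and for a strong reliance on glycolysis, while their dividing precursors in the marrow hold more.

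The RefSeq bases just before the start sites of 4 members are shown for members described below: Sdhd stood far above the other strains in DDY/JclSidSeyFrkJ, and Atp5h, Ndufa8 and Ndufa11 were lower in the wild-derived strains. Each runs 5′ to 3′ on the gene's strand in build GRCm38.p6 and stops at the next gene. Where a gene had several RefSeq promoter entries, the entry that matched the most motifs is shown. Capitals mark matches to the NRF1 motif (GCGCA, any base, GCGC) or the ETS motif (CCGGAAG), both searched on either strand; no match of one overlapped a match of the other in these 4 sequences.
Sdhd, 51 bases up to the start of Timm8b, chr9:50603850-50603900, minus strand: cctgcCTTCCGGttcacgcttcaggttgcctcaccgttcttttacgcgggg
Atp5h, 174 bases up to Kctd2, chr11:115419920-115420093, minus strand: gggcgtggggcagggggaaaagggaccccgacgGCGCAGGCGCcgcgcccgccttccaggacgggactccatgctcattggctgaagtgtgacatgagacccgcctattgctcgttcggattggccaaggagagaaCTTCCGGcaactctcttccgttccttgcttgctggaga
Ndufa8, 134 bases up to Morn5, chr2:36049339-36049472, minus strand: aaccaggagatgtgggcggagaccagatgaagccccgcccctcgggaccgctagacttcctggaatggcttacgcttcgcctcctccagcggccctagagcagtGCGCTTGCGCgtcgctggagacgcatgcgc
Ndufa11, 62 bases up to Vmac, chr17:56717700-56717761, plus strand: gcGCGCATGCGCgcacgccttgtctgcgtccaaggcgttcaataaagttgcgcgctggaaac

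Over the 250 bases before the start site, the NRF1 motif was found for 13 of the 73 members with a RefSeq promoter entry (17.8%), against 4.23% of 27025 genes. The ETS motif was found for 13 of 73 members, against 7.83% of genes, and the YY1 motif AANATGGCG for 3 of 73, against 1.29%. Atp5h, Cox6a1 and Sdhd held both an NRF1 and an ETS match in that window; for Sdhd the NRF1 match lies inside Timm8b and is not printed. Of the 13 members with an NRF1 match, 5 were among those lower in the wild-derived strains. The same held for 2 of the 13 with an ETS match and 0 of the 3 with a YY1 match. Over all members 17 of 89 were lower there. A gene was counted if any of its entries matched. Of the 73 members 25 matched at least 1 of the 3 motifs. All 4 members printed above hold a match, so they do not stand for the members at large. Matches are letters in a sequence, no binding was measured, and no link between motif and level was tested.

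The genes of the sorting markers were bright in every strain, with strain means of 13.44 to 13.88 for Ly6g and 12.45 to 12.80 for Itgam, which encodes CD11b. The mean over 9 mature neutrophil genes ran from 12.08 to 12.47 by strain. Within this list Ccrl2 ran from 6.19 in C57L/J (668) to 8.56 and Il1r2 from 9.13 in PWD/PHJ to 11.09. The rest of the list stayed at 12.41 or above. Means over the markers of other cells ran from 6.45 to 6.87 for erythroid cells (4 genes), 6.82 to 7.60 for monocytes and macrophages (10), 6.05 to 6.55 for B cells (8), 5.90 to 6.61 for T and NK cells (9), 5.91 to 6.31 for eosinophils, basophils and mast cells (10) and 6.31 to 7.86 for megakaryocytes (4). NZB/BINJ stood apart from all other strains: 45.4% of the 10816 bright probe sets, those whose mean log2 intensity reached 7, were called lower there and 12.7% higher, so results that rest on it are given with that background.

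Members passed the strain test more often than probe sets at large and about as often as bright ones. Their median range over strains was somewhat wider than that of bright probe sets. In limma's moderated F test over 40 group means, 76 of 89 members passed an adjusted p of 0.05, against 56% of all 24922 probe sets and 84.9% of the bright ones. When the strain means also had to span 1 or more, 48 of 89 passed, against 24.5% of all probe sets and 42.5% of the bright ones. The median member had an SD over strains of 0.23 and a range of 1.03, and 72.3% of its variance lay between strains. The same medians were 0.14, 0.65 and 65.8% over all probe sets and 0.21, 0.91 and 76.9% over the bright ones.

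By complex, 32 of 34 complex I subunits, 4 of 4 of complex II, 6 of 8 of complex III, 10 of 11 of complex IV and 17 of 17 of complex V passed the strain test. The assembly factors gave 5 of 7 and the isoforms 2 of 8. Median SDs over strains were close to each other in the complexes, from 0.22 in complex III to 0.26 in complex IV, and lower in the assembly factors (0.13) and isoforms (0.12). Only 2 of the 7 assembly factors and 2 of the 8 isoforms were bright, against 70 of the 74 subunits.

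**Figure D1:**
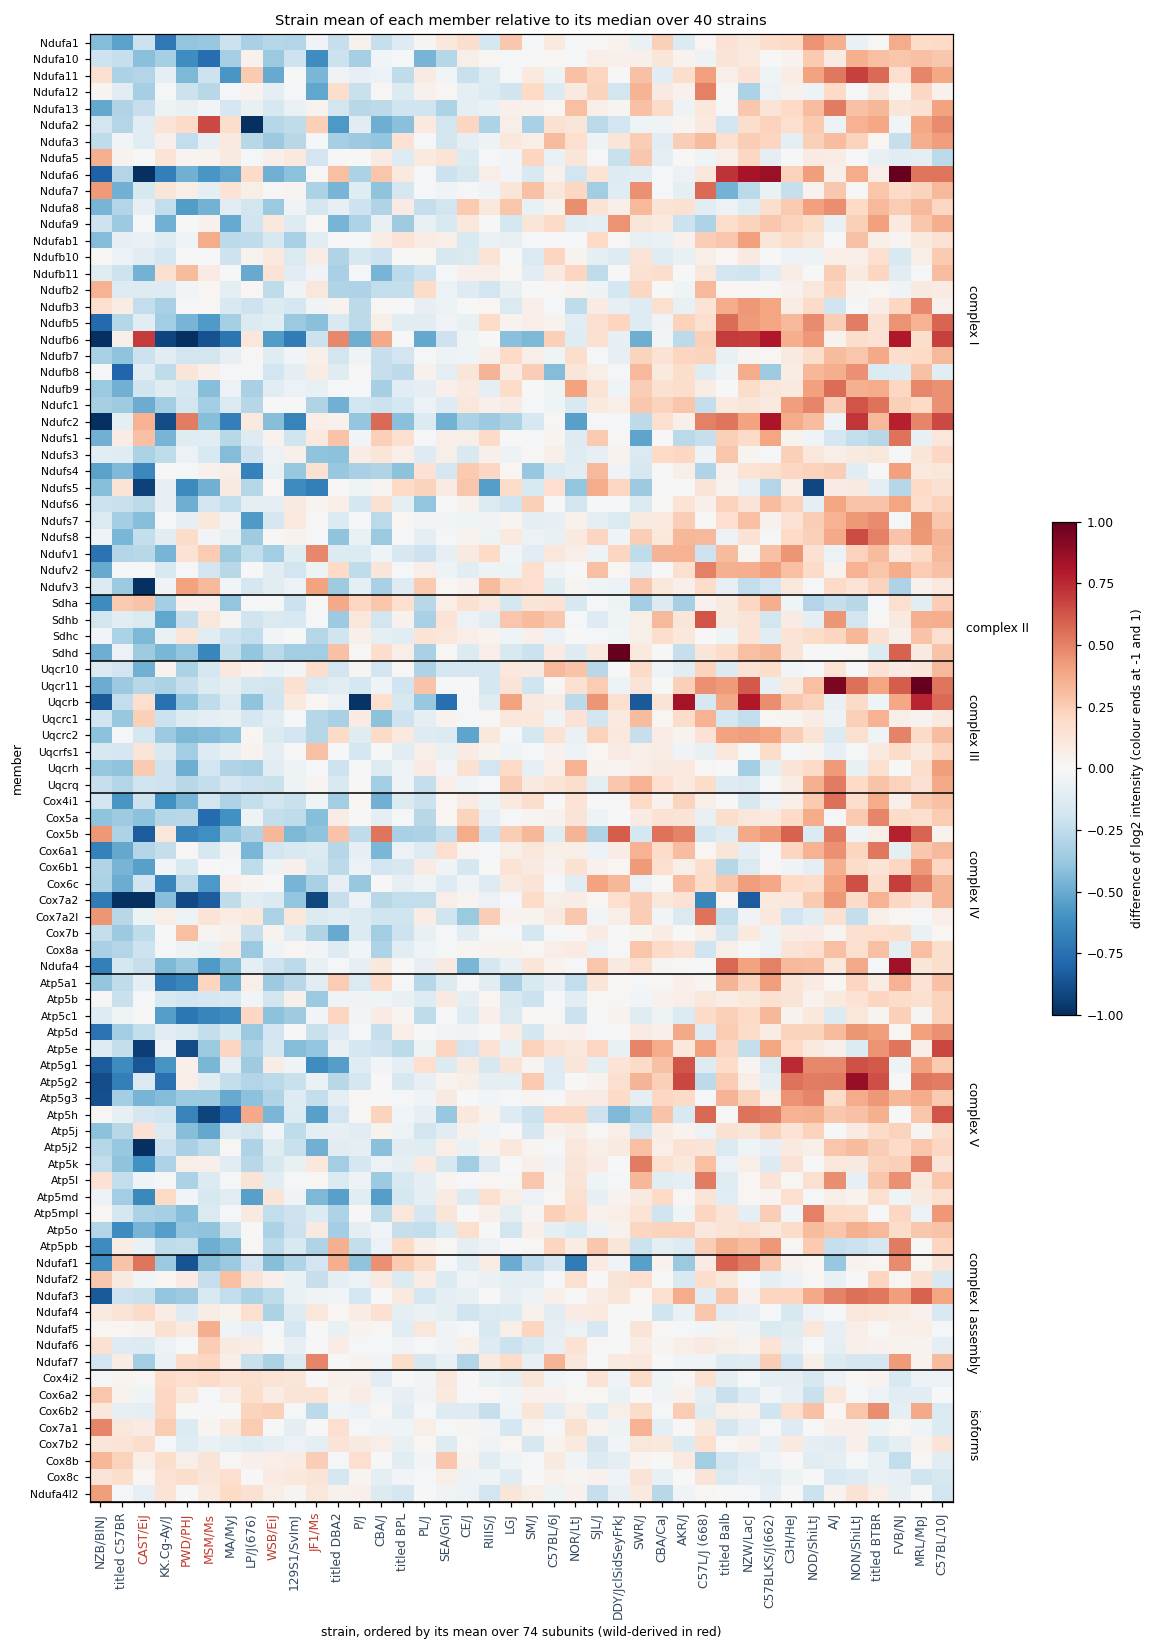
Heat map of 89 members (rows, grouped by complex) in 40 strains (columns, ordered by the mean of 74 subunits), showing each strain mean minus the member's median over strains in log2 intensity. Blue columns on the left and red columns on the right show many subunits low or high together, and isolated dark cells mark Sdhd in DDY/JclSidSeyFrkJ (11.26), Ndufv3 in CAST/EiJ (7.92) and Ndufa2 in LP/J(676) (7.39).

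Complex I held the 3 members with the largest SD over strains. Ndufb6, an accessory subunit of its membrane arm, ran from 8.16 in NZB/BINJ to 10.20 in C57BLKS/J(662), with a median of 9.40 and an SD of 0.53. Its arrays read 8.30 and 8.02 in NZB/BINJ, 8.50 and 8.09 in PWD/PHJ, and 10.06 and 10.35 in C57BLKS/J(662). The low and high strains did not overlap, and the contrasts with the other 39 strains were -1.22 ± 0.24 (SE; adjusted p = 7.5e-05) for NZB/BINJ and -1.08 ± 0.24 (adjusted p = 0.000515) for PWD/PHJ. The wild-derived strains lay at both ends of Ndufb6: CAST/EiJ averaged 10.10, while MSM/Ms averaged 8.53.

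Ndufc2, another membrane-arm accessory subunit, ran from 8.18 in NZB/BINJ to 10.20 in C57BLKS/J(662). NZB/BINJ read 7.83 and 8.52 and C57BLKS/J(662) read 9.97 and 10.43. Strains low in Ndufc2 included KK.Cg-Ay/J (8.49), MA/MyJ (8.70) and 129S1/SvImJ (8.71), which were also among the 6 lowest for Ndufb6 at 8.48, 8.67 and 8.70. CAST/EiJ and PWD/PHJ parted between these subunits: for Ndufc2 both averaged above the median of 9.38.

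Ndufa6, an accessory subunit at the junction of the matrix and membrane arms, had a range of 2.12. CAST/EiJ was lowest, with arrays at 7.80 and 7.28, followed by NZB/BINJ at a mean of 7.83, KK.Cg-Ay/J at 7.95 and MSM/Ms at 8.06. The highest were the single FVB/NJ array at 9.66, C57BLKS/J(662) at 9.50 and NZW/LacJ at 9.46. The median strain lay at 8.64, and the CAST/EiJ contrast was -1.13 ± 0.20 (adjusted p = 1.08e-05 in limma).

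For 2 further complex I subunits a single strain lay well below the rest. Ndufv3, an accessory subunit of the NADH-oxidising module, read 7.86 and 7.97 on the CAST/EiJ arrays. Every other strain mean was between 8.86 (titled C57BR) and 9.63 (JF1/Ms), and the CAST/EiJ contrast was -1.32 ± 0.10 (adjusted p = 5.76e-15). The other wild-derived strains were not low: JF1/Ms, PWD/PHJ and MSM/Ms, at 9.63, 9.62 and 9.54, had the 3 highest means. Ndufa2, an accessory subunit of the same module, read 7.44 and 7.34 in LP/J(676), against strain means of 7.82 (titled DBA2) to 9.06 (MSM/Ms) elsewhere, with a contrast of -1.01 ± 0.14 (adjusted p = 9.08e-07).

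Neighbouring genes differed less than these members in the same strains. The members were named for their large differences there and the neighbours were not, so this was likely from the start. It does not show that a difference is limited to the member, and the same holds for the neighbours of Sdhd and Cox7a2 below. In CAST/EiJ, Wdr4 and Pknox1, on either side of Ndufv3 in the RefSeq gene order, differed from the other strains by -0.24 ± 0.08 (adjusted p = 0.032) and 0.21 ± 0.10 (adjusted p = 0.167). In LP/J(676) the neighbours of Ndufa2, Tmco6 and Ik, differed by 0.19 ± 0.10 (adjusted p = 0.227) and -0.31 ± 0.10 (adjusted p = 0.031), while Cd14, 2 places from Ndufa2, was higher by 0.73 ± 0.20 (adjusted p = 0.00958).

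Ndufs5, an accessory subunit on the intermembrane side, ran from 6.55 in CAST/EiJ and 6.57 in NOD/ShiLtJ to 7.85 in SJL/J. Ndufb5 ran from 7.08 in NZB/BINJ to 8.43 in C57BL/10J. The 6 core subunits measured, which include those that carry the flavin and iron-sulphur clusters, had ranges between 0.71 for Ndufs3 and 1.22 for Ndufv1, which ran from 7.47 in NZB/BINJ to 8.69 in JF1/Ms; Ndufs1, Ndufs7, Ndufs8 and Ndufv2 lay between 1.00 and 1.11. Ndufb10 had the smallest SD of the complex I subunits, 0.13, and did not pass the strain test, with strain means between 6.68 and 7.24. Among the assembly factors Ndufaf1, needed for building the membrane arm, ran from 6.91 in PWD/PHJ and 7.08 in NOR/LtJ to 8.36 in titled Balb.

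Complex II, succinate dehydrogenase, gave the largest single-strain difference of any member. Sdhd, one of the membrane anchors that hold its haem and pass electrons to ubiquinone, read 11.27 and 11.25 on the DDY/JclSidSeyFrkJ arrays. The next strain was FVB/NJ at 9.99 on its single array, the median strain lay at 9.41 and the lowest was MSM/Ms with arrays at 9.01 and 8.49. Both DDY/JclSidSeyFrkJ arrays lay above every other array, with a contrast of 1.91 ± 0.12 (adjusted p = 2.01e-17).

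Timm8b, a small chaperone of the intermembrane space that starts 51 bases from Sdhd in the opposite direction, did not show it. Its DDY/JclSidSeyFrkJ mean was 9.51 against a median of 9.63, a difference of -0.13 ± 0.08 (adjusted p = 0.532). Tex12, on the other side of Sdhd, differed by 0.06 ± 0.08 (adjusted p = 0.831). In DDY/JclSidSeyFrkJ no other member lay as much as 1 from its median, and the other complex II subunits spread less: Sdha ran from 9.00 to 10.02, Sdhb from 8.29 to 9.43 and Sdhc, with the smallest SD of the complex at 0.16, from 8.87 to 9.65.

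**Figure D2:**
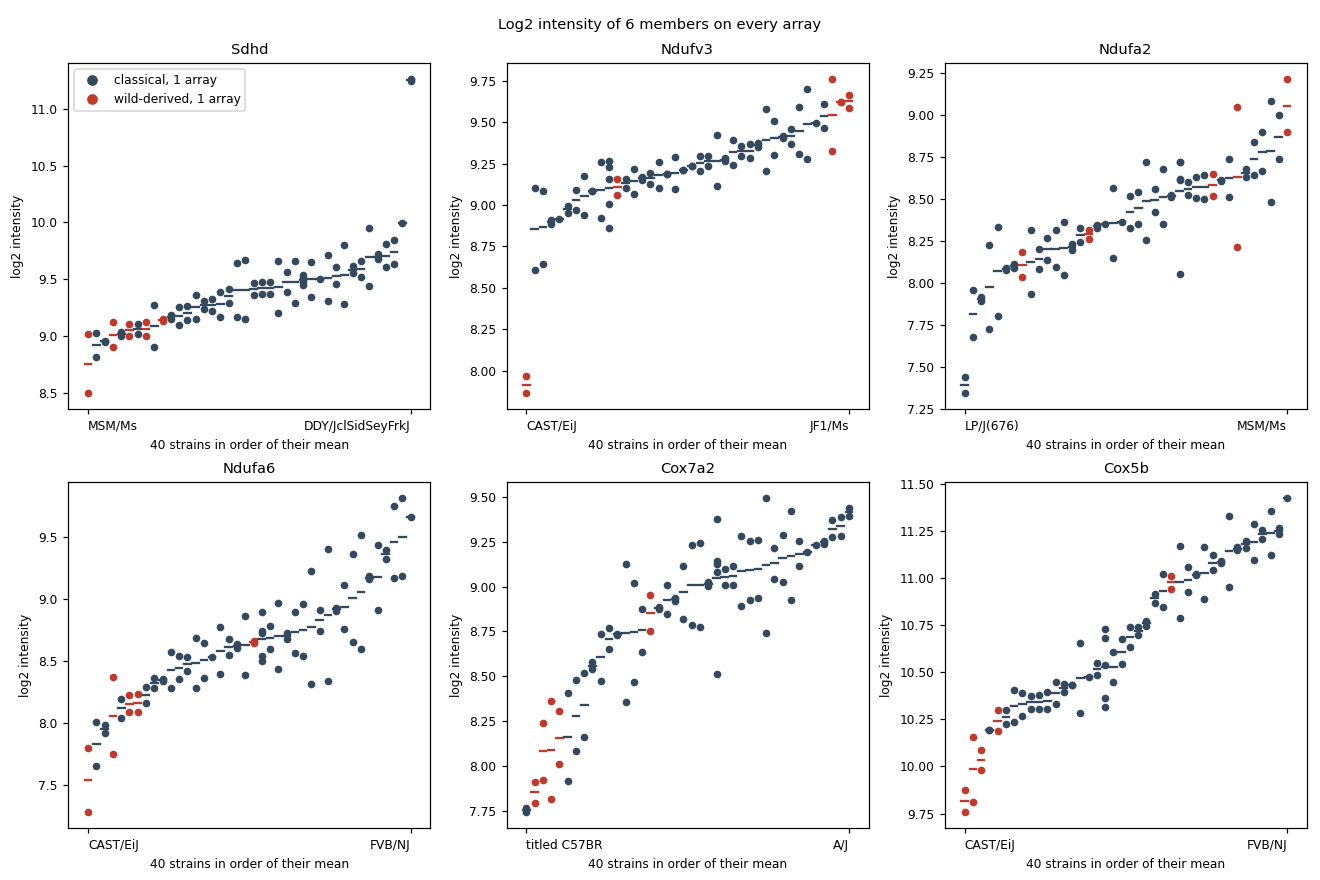
Log2 intensity of 6 members on every array, with the 40 strains in order of their mean (short lines) in each panel and wild-derived strains in red. Sdhd stands alone at the top in DDY/JclSidSeyFrkJ (11.27 and 11.25), Ndufv3 at the bottom in CAST/EiJ (7.86 and 7.97) and Ndufa2 at the bottom in LP/J(676) (7.44 and 7.34), while Ndufa6, Cox7a2 and Cox5b change more gradually over strains.

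In complex III, 3 of 8 subunits passed with strain means spanning 1 or more: the small subunits Uqcrb and Uqcr11 and the core protein Uqcrc2. Uqcrb ran from 8.71 in P/J, with arrays at 8.56 and 8.87, to 10.52 in AKR/J, with arrays at 10.59 and 10.46. SWR/J (8.85), NZB/BINJ (8.85), SEA/GnJ (8.94) and KK.Cg-Ay/J (8.95) were also low, and these 5 strains lay below all others, the next being LP/J(676) at 9.29. The contrasts were -0.99 ± 0.15 (adjusted p = 3.87e-06) for P/J and 0.86 ± 0.15 (adjusted p = 5.57e-05) for AKR/J.

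Uqcr11 was highest in MRL/MpJ, at 9.21 and 9.66, and in A/J, at a mean of 9.36, against a median of 8.42. The core proteins Uqcrc1 and Uqcrc2 had ranges of 0.76 and 1.03. Uqcrfs1, the Rieske iron-sulphur protein at the catalytic centre, had an SD of 0.12, the smallest in complex III, and did not pass the strain test, with strain means of 7.19 to 7.82.

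Complex IV held the member most fully ordered by strain. For Cox5b, a nuclear-encoded subunit on the matrix side, 95.4% of the variance lay between strains, the largest share of any member. CAST/EiJ was lowest, at 9.87 and 9.76, followed by PWD/PHJ at 9.98, MSM/Ms at 10.04, 129S1/SvImJ at 10.20 and JF1/Ms at 10.24. FVB/NJ was highest, at 11.43 on its single array, ahead of DDY/JclSidSeyFrkJ at 11.25 and C3H/HeJ at 11.24. A second probe set of Cox5b followed the first over strains with r = 0.97.

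Cox7a2 encodes the widely expressed form of subunit 7a. In titled C57BR it read 7.77 and 7.74 and in CAST/EiJ 7.79 and 7.91. JF1/Ms (8.08), PWD/PHJ (8.09), MSM/Ms (8.16), NZW/LacJ (8.16) and NZB/BINJ (8.28) followed, while the median strain lay at 8.99 and A/J was highest at 9.42. WSB/EiJ, at 8.85, was the wild-derived strain near the classical ones. The genes beside Cox7a2, Col12a1 and Tmem30a, differed in titled C57BR by 0.12 ± 0.09 (adjusted p = 0.51) and 0.18 ± 0.11 (adjusted p = 0.384), against -1.10 ± 0.16 (adjusted p = 1.7e-06) for Cox7a2.

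Cox7a2l, a relative of Cox7a2 that joins complexes III and IV, was followed by 2 probe sets that correlated over strains with an r of only 0.30; its brighter probe set ran from 8.05 in CE/J to 8.96 in C57L/J (668). For the other 16 genes with several probe sets, each further probe set followed the brightest with r of at least 0.88. Cox7b had the smallest SD of the complex IV subunits, 0.165, and its pass depended on the setting, with adjusted p between 0.0114 and 0.246.

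The isoforms of muscle, lung, testis or low oxygen varied less over strains than the subunits, with a median SD of 0.12 against 0.25. Mean log2 intensities were 7.07 for Cox4i2, 7.73 for Cox6a2, 6.87 for Cox6b2, 6.15 for Cox7a1, 4.75 for Cox7b2, 6.49 for Cox8b, 6.86 for Cox8c and 6.37 for Ndufa4l2. The files used here hold no measure of background, so these levels cannot be told apart from none. Cox6b2 and Cox8b passed the strain test, with ranges of 0.72 and 0.68; Cox8b no longer passed without NZB/BINJ (adjusted p = 0.0872).

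In complex V all 17 subunits passed the strain test. The 3 genes Atp5g1, Atp5g2 and Atp5g3 encode the same mature c subunit of the rotating ring. Atp5g1 ran from 8.16 in CAST/EiJ to 9.77 in C3H/HeJ, Atp5g2 from 9.00 in NZB/BINJ to 10.76 in NON/ShiLtJ and Atp5g3 from 8.02 in NZB/BINJ to 9.38 in NOD/ShiLtJ. A/J, AKR/J, C3H/HeJ, NON/ShiLtJ and titled BTBR lay high for both Atp5g1 and Atp5g2.

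Of the other ATP synthase subunits, Atp5h, of the peripheral stalk, ran from 9.71 in MSM/Ms to 11.27 in C57BL/10J. Atp5e, of the rotor, ran from 7.39 in CAST/EiJ and 7.44 in PWD/PHJ to 9.00 in C57BL/10J. Atp5j2, of the membrane part, was lowest in CAST/EiJ, at 8.78 and 8.95, with every other strain mean at 9.41 or above. The catalytic subunit gene Atp5b was the least variable, with an SD of 0.14 and strain means of 11.06 to 11.66.

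The subunits moved together over strains. The mean of the 74 subunits ran from 8.80 in NZB/BINJ to 9.39 in C57BL/10J, with an SD of 0.163 over strain means and 0.126 between arrays of a strain. After NZB/BINJ the lowest strains were titled C57BR (8.83), CAST/EiJ (8.85), KK.Cg-Ay/J (8.86) and PWD/PHJ (8.89). After C57BL/10J the highest were MRL/MpJ (9.35), FVB/NJ (9.32), titled BTBR (9.32), NON/ShiLtJ (9.31) and A/J (9.31). Neighbours in this order were closer than the spread between arrays: in C57BL/6J alone the 5 arrays read 8.87, 9.29, 9.11, 9.25 and 9.20, and the NZB/BINJ arrays read 8.93 and 8.67. The SD over all probe sets of a strain was 1.87 in NZB/BINJ, 2.00 in titled C57BR, 2.01 in CAST/EiJ, 1.97 in KK.Cg-Ay/J and 1.99 in PWD/PHJ. Among the high strains it was 2.05 in C57BL/10J, MRL/MpJ and FVB/NJ, 2.03 in titled BTBR, 2.02 in NON/ShiLtJ and 2.01 in A/J. The part of this array-wide spread in the subunit order was not tested. NZB/BINJ also had the highest strain mean of the erythroid (6.87) and B cell (6.55) markers and of 9 immediate early and stress genes (8.63, with a lowest mean of 7.63 in PWD/PHJ); their part in its low subunit mean was not tested.

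**Figure D3:**
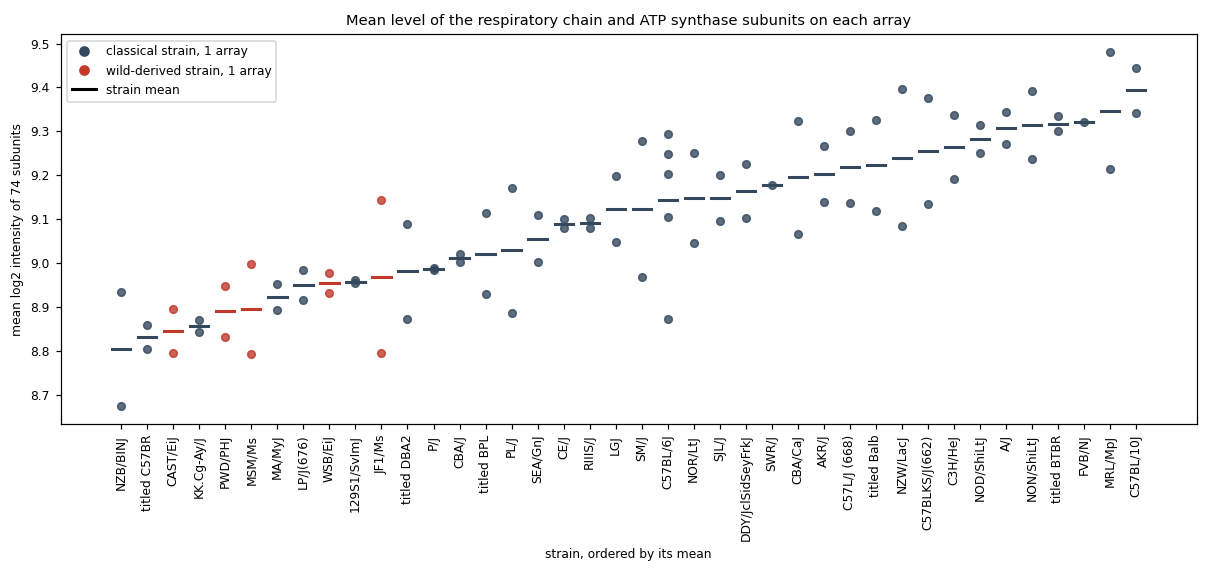
Mean log2 intensity of 74 subunits on each of 81 arrays (points), by strain in order of the strain mean (lines), with wild-derived strains in red. The 5 wild-derived strains sit between 8.85 and 8.97, within the 11 lowest, and arrays of a strain can differ as much as strains several places apart.

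Over 40 strain means the median Pearson correlation between 2 subunits was 0.39, and 89.4% of the 2701 pairs were positive. Between bright probe sets the median was 0.02, with 52.9% positive. Without NZB/BINJ the median over subunits was 0.39 again. By complex it was 0.50 in complex V, 0.46 in complex IV, 0.36 in complex I, 0.35 in complex III and 0.16 in complex II. All values of a strain share the same arrays, RNA and scaling, so these correlations describe these libraries.

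Complex means followed one another as well, with r to the mean of all subunits of 0.98 for complexes I and V, 0.94 for complex IV, 0.93 for complex III and 0.69 for complex II; each complex is itself part of that mean. The mean of the 7 assembly factors followed it with r = 0.58, and that of the 8 isoforms ran against it, with r = -0.60 (rho -0.60) and -0.54 without NZB/BINJ. Only 2 of the 8 isoforms were bright and their levels cannot be told apart from none, so this correlation may not describe their transcripts. Atp5g3 and Atp5o followed the mean of the other subunits most closely, with r of 0.89 and 0.88, and Ndufb5 with 0.88. Those that followed it least were Sdha (0.02), Cox7a2l (0.02) and Ndufs1 (0.13), with Ndufa5, of mean 6.29, running against it (-0.34).

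Strain by strain, the count of members called is given with the share of all probe sets and then of bright probe sets called the same way; most members are bright. Higher than the mean of the other strains were 20 of 89 members in titled BTBR (6.64% and 11.7%), 17 in C57BL/10J (4.32% and 8.44%), 17 in A/J (3.71% and 5.8%), 14 in MRL/MpJ (5.44% and 10.3%), 13 in NON/ShiLtJ (7.53% and 12%) and 12 in C57BLKS/J(662) (3.52% and 6.76%). Lower were 23 in CAST/EiJ (8.94% and 16.3%), 23 in KK.Cg-Ay/J (8.89% and 17%), 21 in PWD/PHJ (9.31% and 17.6%), 20 in titled C57BR (5.92% and 11.7%), 19 in MSM/Ms (9.77% and 18.6%), 17 in JF1/Ms (9.63% and 16.8%) and 15 in MA/MyJ (5.92% and 11%). In NZB/BINJ 36 of 89 were lower, above the 22% of all probe sets and below the 45.4% of bright ones. In MSM/Ms, JF1/Ms and NON/ShiLtJ the members' share was close to that of bright probe sets. These contrasts share arrays, since each strain also forms part of the mean the others are set against.

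These counts rest on small groups. With either array of the strain left out, which leaves a lone array assumed to vary like the others, higher members numbered 3 to 4 in titled BTBR, 1 to 9 in C57BL/10J, 1 to 3 in A/J, 1 to 18 in MRL/MpJ, 5 to 8 in NON/ShiLtJ and 0 to 11 in C57BLKS/J(662). Lower members numbered 20 to 27 in NZB/BINJ, 13 to 15 in CAST/EiJ, 3 to 6 in KK.Cg-Ay/J, 4 to 14 in PWD/PHJ, 1 to 6 in titled C57BR, 6 to 21 in MSM/Ms, 3 to 20 in JF1/Ms and 2 to 3 in MA/MyJ. Under quantile normalization 19 members were lower in NZB/BINJ and 8 higher in C57BL/10J, and with arrays set to a common median 5 were higher in A/J and 12 in titled BTBR.

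Wild-derived strains had lower subunit intensities than classical strains. A sequence variant under a probe and a lower transcript level cannot be told apart in this comparison. Their 5 strain means of the 74 subunits, 8.85 to 8.97, lay below the classical median of 9.15, while classical strains ran from 8.80 to 9.39. In limma on strain means, 17 of 89 members were lower and 0 higher at an adjusted p of 0.05, against 5.55% of all probe sets lower and 6.64% higher, and 10.8% and 7.92% of the bright ones. At an unadjusted p under 0.05 the members gave 37 lower and 2 higher. All 17 are subunits: 6 of complex I, 1 of complex III, 3 of complex IV and 7 of complex V. Without MSM/Ms, and likewise without PWD/PHJ, 11 members were lower. The fit takes each strain as an independent value, although some strains are related, as in the pairs compared below. Its SEs and adjusted p may therefore be too small.

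**Figure D4:**
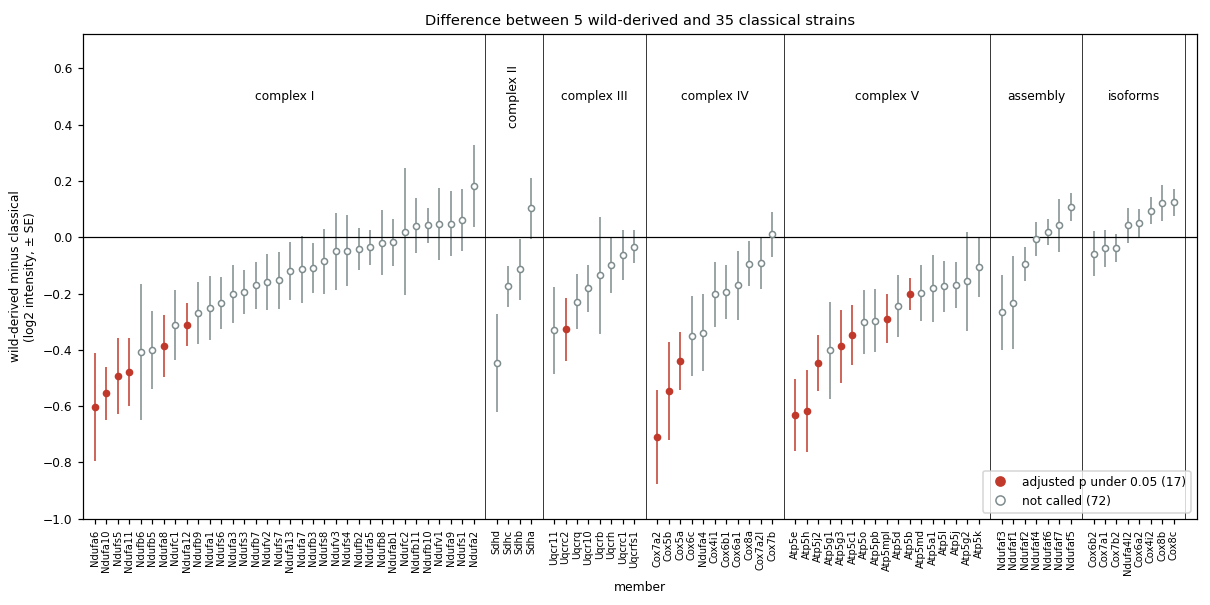
Mean of 5 wild-derived strains minus mean of 35 classical strains for each of 89 members, in log2 intensity with SE bars, ordered by size within each complex. The 17 members that passed an adjusted p of 0.05 (red) all lie below 0, from -0.71 for Cox7a2 to -0.20 for Atp5b, and isoforms and assembly factors scatter around 0.

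Below the classical mean, whatever their call, were 72 of the 89 members, against 39.9% of all probe sets and 49.8% of the bright ones. For 35 of 89 no wild-derived strain lay above the classical median, against 10.6% and 16.9%. The median difference was -0.19 over the 74 subunits, -0.29 in complex V, -0.20 in complex IV, -0.16 in complex III, -0.14 in complexes I and II, and 0.03 over all probe sets. It was -0.01 over the assembly factors and 0.05 over the isoforms.

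Among the 6 largest differences, Ndufa10, a membrane-arm subunit of complex I, had the lowest p. It averaged 8.73 in CAST/EiJ, 8.53 in JF1/Ms, 8.39 in MSM/Ms, 8.53 in PWD/PHJ and 8.78 in WSB/EiJ. Classical strains ran from 8.69 to 9.51 around a mean of 9.15, so the ranges barely overlapped, and the difference was -0.55 ± 0.09 (adjusted p = 5.12e-05). It passed in all 15 other settings, with adjusted p of at most 0.00117.

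Atp5e averaged 7.39 in CAST/EiJ, 7.93 in JF1/Ms, 7.96 in MSM/Ms, 7.44 in PWD/PHJ and 8.15 in WSB/EiJ, against classical means of 7.89 to 9.00. All 5 lay below the classical mean of 8.41, and the difference was -0.63 ± 0.13 (adjusted p = 0.000613). For Cox7a2 the difference was -0.71 ± 0.17 (adjusted p = 0.00315), with WSB/EiJ (8.85) apart from the other 4 (7.85 to 8.16). Atp5h differed by -0.62 ± 0.15 (adjusted p = 0.00312), with means from 9.71 in MSM/Ms to 10.47 in CAST/EiJ.

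Ndufa6 and Cox5b differed by -0.60 ± 0.19 and -0.55 ± 0.17, each at an adjusted p of 0.0313, and these calls depended on single strains. Without CAST/EiJ the differences were -0.46 (adjusted p = 0.155) for Ndufa6 and -0.45 (adjusted p = 0.129) for Cox5b. The remaining 11 were Ndufa8, Ndufa11, Ndufa12, Ndufs5, Uqcrc2, Cox5a, Atp5b, Atp5c1, Atp5g3, Atp5j2 and Atp5mpl, with differences from -0.49 for Ndufs5 to -0.20 for Atp5b. The Ndufs5 call was lost without CAST/EiJ or JF1/Ms and the Atp5b call without JF1/Ms. Ndufb5, at -0.40 ± 0.14, missed the threshold with an adjusted p of 0.0519 and passed without NZB/BINJ (adjusted p = 0.0181).

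Some markers of cell stage were also lower in the wild-derived strains. The mean of 16 cell cycle genes was 7.08 to 7.93 in the wild-derived strains and 6.88 to 9.50 in the classical ones, with means of 7.47 and 8.12; these ranges overlap, and 1 of the 16, Pcna, was called, a share near the background given above, lower by 1.13 ± 0.31 (adjusted p = 0.0112). The mean of 7 azurophil granule genes, made early in the neutrophil lineage, was 6.45 to 6.53 against 6.48 to 7.30, with Ms4a3 and Prss57 called lower. That of 9 specific granule genes was 11.34 to 12.43 against 11.60 to 12.84, with Camp, Chil3, Orm1 and Ceacam10 called lower. The list mean was 11.85 against 12.48, but the median difference over the 9 genes was only -0.04, so a part of the list carried it. Monocyte and macrophage markers averaged 7.01 against 7.24, but of these 10 genes 1 was called higher in the wild-derived strains and 0 lower. The 9 mature neutrophil genes averaged 12.24 against 12.25 with none called. In this bulk RNA fewer cells of a stage and less RNA per cell cannot be told apart, and the part of these values in the subunit difference was not tested.

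Of the 4 related pairs, 3 differed in 1 or 2 members, shares near or below those of all probe sets, and the fourth, NZB/BINJ against NZW/LacJ, in 38. C57BL/10J and C57BL/6J differed in 1 member, against 1.89% of all probe sets higher and 0.766% lower: Ndufc1, a small membrane-arm subunit, read 8.62 on both C57BL/10J arrays and 7.86 to 8.33 on the 5 C57BL/6J arrays, a difference of 0.51 ± 0.15 (adjusted p = 0.0472). The median member was 0.21 higher in C57BL/10J and 74 of 89 were higher, against a median of -0.01 over all probe sets; these shifts did not pass member by member. No member was called with arrays set to a common median, or without C57BL/10J replicate 3, C57BL/6J replicate 1 or C57BL/6J replicate 3; without C57BL/10J replicate 1 there were 4, without C57BL/6J replicate 2 there were 3 and without C57BL/6J replicate 4 there were 2.

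CBA/J and CBA/CaJ differed in Ndufb11, an X-linked accessory subunit, which read 10.13 and 10.33 in CBA/J and 10.91 and 10.83 in CBA/CaJ, a difference of -0.64 ± 0.15 (adjusted p = 0.0118; 0.566% of all probe sets lower and 1.14% higher). No member was called without CBA/CaJ replicate 1, CBA/CaJ replicate 2 or CBA/J replicate 1. NOD/ShiLtJ and NOR/LtJ differed in 2 members. Ndufc1 read 8.78 and 8.51 in NOD/ShiLtJ and 7.83 and 8.18 in NOR/LtJ (0.64 ± 0.18, adjusted p = 0.0188; 3.05% higher). Cox5b read 10.48 and 10.55 against 10.92 and 11.06 (-0.48 ± 0.13, adjusted p = 0.0137; 2.5% lower). The count was 0 without NOD/ShiLtJ replicate 1, 1 without NOR/LtJ replicate 2 and 3 without NOD/ShiLtJ replicate 2.

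NZB/BINJ and NZW/LacJ, the parents of a lupus-prone hybrid, differed in 38 members, 32 of them lower in NZB/BINJ and 6 higher, against 21.3% and 24.1% of all probe sets. The largest were Ndufb6 (-1.93 ± 0.33), Uqcrb (-1.64 ± 0.21), Ndufa6 (-1.63 ± 0.27) and Ndufc2 (-1.61 ± 0.28), with adjusted p from 6.54e-08 to 1.49e-05 and no overlap of arrays. Higher in NZB/BINJ were Ndufa7, Cox7a2l and the isoforms Cox7a1, Cox8b, Ndufa4l2 and Cox6a2, by 0.41 to 0.69. Of these, Cox7a1, Cox8b and Ndufa4l2 had mean log2 intensities of 6.15, 6.49 and 6.37, below the limit of 7 for bright probe sets. Against the other strains 24.7% of all probe sets were called higher in NZB/BINJ, but 12.7% of the bright ones. Higher calls were thus more frequent there below that limit, and whether these isoforms rose beyond that background was not tested. Leaving out NZW/LacJ replicate 1 lowered the count to 19, and that bright probe sets in general were lower in NZB/BINJ applies here as well.

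Other mitochondrial lists moved partly with the subunits. Of 30 assembly factors for complexes II to V, 25 passed the strain test, a share near the 84.9% of bright probe sets. Of these, 8 spanned 1 or more, against 24.5% of all probe sets and 42.5% of the bright ones. The mean of the 30 followed the subunit mean with r = 0.83 (rho = 0.85) over 40 strains. Uqcc2, for complex III, ran from 6.85 in NZB/BINJ to 8.59 in NZW/LacJ, and Atpif1, the inhibitor of the ATP synthase, from 8.62 in LGJ to 10.60 in NON/ShiLtJ. Between origins 2 were higher and 3 lower, shares near those of bright probe sets (7.92% and 10.8%). Cox11 was higher in wild-derived strains by 0.40 ± 0.08 (adjusted p = 0.000284) and Bcs1l, which inserts the Rieske protein, was lower by 0.64 ± 0.10 (adjusted p = 2.6e-05).

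Of the 13 subunits encoded by mitochondrial DNA, 2 were measured by a named probe set. Both passed the strain test and both were lower in wild-derived strains: mt-Nd3 by 0.46 ± 0.13 (adjusted p = 0.0133), with its lowest mean of 8.98 in WSB/EiJ, and mt-Co2 by 0.35 ± 0.08 (adjusted p = 0.00274). Their mean followed the nuclear subunits with r = 0.63 over strains.

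Electron carriers and feeders followed the subunit mean with r = 0.81, and 16 of 19 passed the strain test, again near the 84.9% of bright probe sets. Etfb, of the electron transfer flavoprotein, ran from 8.31 in titled C57BR to 9.78 in titled BTBR, and Cycs, cytochrome c, from 9.58 in CE/J to 10.81 in NZW/LacJ. Of 16 tricarboxylic acid cycle enzymes 14 passed, also near that share, with r = 0.67 for their mean. In wild-derived strains 4 were lower and 1 was higher, against 10.8% and 7.92% of bright probe sets. Dlst, of the 2-oxoglutarate dehydrogenase complex, was lower by 0.46 ± 0.06 (adjusted p = 5.34e-07), and Suclg2 was higher by 0.36 ± 0.11 (adjusted p = 0.0238).

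Regulators of mitochondrial gene expression followed the subunits less, with r = 0.45, falling to 0.31 without NON/ShiLtJ and NZB/BINJ. Of 15, 7 passed the strain test, a share below the 56% of all probe sets. Nrf1, which encodes the factor whose motif is marked above, was higher in wild-derived strains by 0.17 ± 0.04 (adjusted p = 0.00562), while Tfam, which packages mitochondrial DNA, was lower by 0.38 ± 0.12 (adjusted p = 0.039) at a mean of 5.15. Tfb2m, a mitochondrial transcription factor, had the widest range, from 6.42 in NZB/BINJ to 8.51 in MSM/Ms.

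The subunit mean also rose over strains with some lists of genes tied to cell stage, which itself was not measured. Over 40 strains its correlation with the cell cycle mean was 0.61 (rho 0.63), and 0.63 without NON/ShiLtJ and NOR/LtJ, the 2 strains farthest from the median of that list. With the azurophil granule mean it was 0.60 (0.56 without NON/ShiLtJ and titled BTBR). It was 0.53 (rho 0.65) with 9 specific granule genes and -0.11 with 9 mature neutrophil genes. Single strains departed from the rise with cell cycle genes. CBA/J had a cell cycle mean of 8.94 and a subunit mean of 9.01. NOR/LtJ had the lowest cell cycle mean, 6.88, and a subunit mean of 9.15. The points share arrays and scaling, and the part of cell stage in the subunit levels was not tested.

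**Figure D5:**
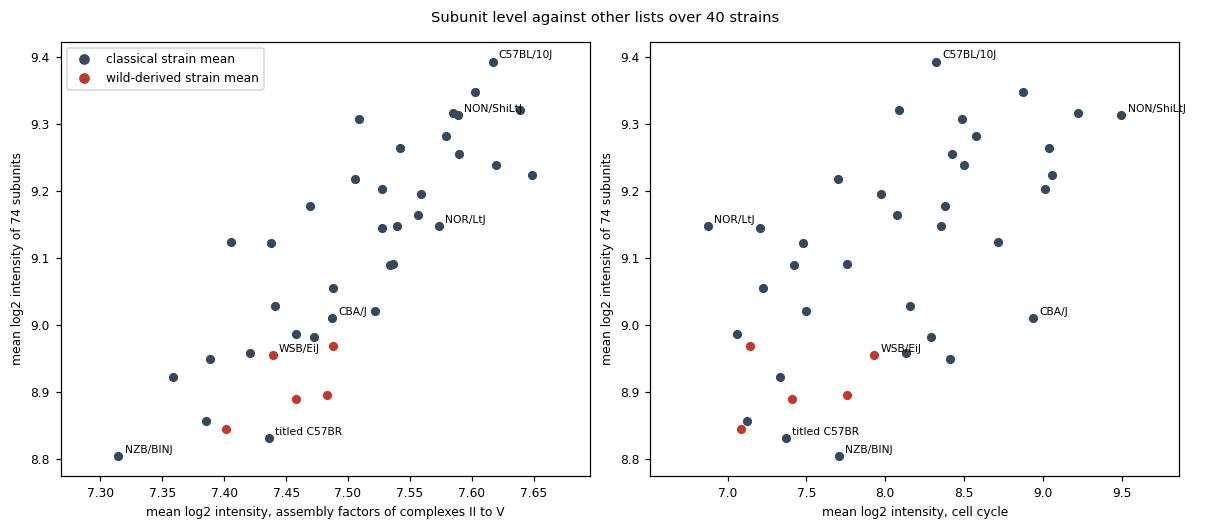
Mean log2 intensity of 74 subunits (vertical axis) against the mean of 30 assembly factors of complexes II to V (left) and of 16 cell cycle genes (right), 1 point per strain mean, wild-derived in red. The points rise together in both panels, more tightly on the left (r = 0.83) than on the right (r = 0.61), where CBA/J and NOR/LtJ lie off the trend.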

How the data were processed

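Log2 values were computed from the deposited table of 24922 probe sets on 81 arrays. Its values are linear intensity values made by the authors; per the submitters' processing notes they used RMA in Affymetrix Power Tools (no version given), and the genome build is not given in the sources used here. Values ran from 5.30 to 19348. No scaling was added. Members, lists and tests were chosen with earlier results of these data known. Tests used R 4.3.3 and limma 3.58.1 with Benjamini-Hochberg adjustment over all probe sets, called at an adjusted p under 0.05: a moderated F over 40 title groups (41 residual and 7.93 prior degrees of freedom), contrasts of each strain with the mean of the other 39, contrasts of 4 related pairs, and 5 wild-derived against 35 classical strain means. The spread is pooled over groups. The fits were tested on simulated data. Same-numbered arrays showed no common shift over all groups, with a median correlation of deviations of 0.02 over 595 pairs of groups. Single pairs ranged from -0.57 to 0.70, with 188 above 0.1, so arrays of some groups did vary together. No arrays were identical (highest correlation 0.997). Arrays are pools of mice that the series describes as biological replicates, and their number limits the precision.

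Named members were the 15 called with the largest SD, every member with a strain mean at least 1 from the median (both with a highest mean of at least 7), up to 6 per direction between origins and 4 per direction and pair, the smallest SD per complex, all isoforms, and up to 4 per list; others were named after their values were seen. A sequence variant under a probe and a lower transcript level cannot be told apart in these values. Some of these genes have processed copies in the mouse genome, and cross-hybridisation was not tested. Another 6 probe sets with several symbols were not used.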

Additional observations from a re-analysis of the deposited data

Results flagged for a closer look

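In C57BL/6J, the strain with 5 arrays, replicate 1 lay apart from the other arrays for 3 members. It read 9.36 for Atp5j2 against 9.94 to 10.16 on the others, 8.05 for Ndufa2 against 8.61 to 8.72, and 8.91 for Ndufa7 against 9.24 to 9.30. Its mean over 74 subunits, 8.87, was also the lowest of the 5. Among the 5 wild-derived strains, CAST/EiJ lay apart for the isoform Cox7b2, at 4.93 against 4.63 to 4.68 in the others. In all 72 groups were examined, 36 members in each of the C57BL/6J arrays and the wild-derived strains, and chance alone places about 5% of groups past this limit.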

How the results depend on the processing

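Of 89 members, 68 to 76 passed the strain test in 10 other settings and 71 to 77 with any array left out, against 76. When strain means had to span 1 or more, 39 to 50 and 45 to 51 passed, against 48. With the replicate number as a block, the counts were 73 for the strain test and 18 lower between origins; the block gave 2 in place of 1 for C57BL/10J against C57BL/6J and 2 in place of 1 for CBA/J against CBA/CaJ, and 7 in place of 17 members higher in C57BL/10J. Lower members in wild-derived strains numbered 11 to 20 in 15 settings, with 11 without MSM/Ms or PWD/PHJ; in none was a member higher.

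For C57BL/10J against C57BL/6J, 2 members were called without NZB/BINJ, under quantile normalization and without the groups of conflicting labels, 0 with a common median and 3 among bright probe sets; leaving out arrays gave 0 to 4. For CBA/J against CBA/CaJ the count was 2 without NZB/BINJ, 3 under quantile normalization, among bright probe sets and without the conflicting groups, and 0 to 1 with arrays left out. For NOD/ShiLtJ against NOR/LtJ it was 1 with a common median and 0 to 3 with arrays left out. For NZB/BINJ against NZW/LacJ it was 19 to 44 with arrays left out. The causes were not tested. The setting without NZB/BINJ was chosen after seeing the data. No background measure was used, so low probe sets have no floor.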
